A study of Mus musculus with 41 samples.

Results

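The 10 genes described here mark the primitive endoderm, and their FPKM values were read in 13 RNA-seq libraries of mouse androgenetic haploid embryonic stem cells (AG-haESCs). They were chosen by name, as Gata4, Gata6, Sox17, Sox7, Foxa2, Dab2, Cubn, Amn, Lama1 and Lamb1, out of 24028 gene symbols in the deposited tables. Each of the 10 stood on a single row in every library. Lamb1, Amn and Lama1 were detected in every library at a low level. Foxa2, Cubn, Gata6 and Sox17 were at or near 0 and reached 3 sequenced fragments in 1, 1, 4 and 4 libraries, by an estimate explained below. Gata4, Sox7 and Dab2 lay between, with 3 fragments or more in 10, 11 and 9 libraries, and no transcription factor gene exceeded 0.645 FPKM. No member was called in any of the 5 comparisons made, but 6 to 8 of the 10 were too low to be tested in each. Of all genes tested, between 0% and 7.57% were called, depending on the comparison.

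Primitive endoderm is the extraembryonic layer that forms next to the epiblast in the blastocyst and gives rise to the visceral and parietal endoderm of the yolk sac. Fibroblast growth factor signalling through MEK and ERK helps to direct inner cells to this layer, and the GATA and SOX factors listed above act in its gene programme. Embryonic stem cells correspond to the epiblast, and a MEK inhibitor in the medium blocks that route to endoderm.

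AG-haESCs carry a single set of chromosomes of paternal origin, and all lines were of strain C57BL/6. The wild-type line 2i-14 was grown in 2i/L, a serum medium with LIF, the MEK inhibitor PD0325901 and the GSK3 inhibitor CHIR99021, and was sampled at passages 18, 39 and 50. The wild-type lines TSa2i-C57 (sampled at passages 9 and 58) and TSa2i-14 (sampled at passages 22, 47 and 54) were kept in a serum-free medium. This medium held LIF, CHIR99021 and the Src inhibitor CGP77675 in place of the MEK inhibitor, and is here called TSa2i/L. The paper lists TSa2i-14 with actin-EGFP on the C57BL/6 background and TSa2i-C57 without it. The line 2i-O48 lacks the paternally methylated differentially methylated regions (DMRs) IG-DMR and H19-DMR, and its relative 2i-O48-TKO additionally lacks the H19 gene. Both were sampled in 2i/L with 1 library per line. A further library of each 2i/L line, wild type included, was made 5 passages after the cells were switched from 2i/L to the serum-free medium. Several libraries came from successive passages of the same line, so p-values measure the spread between cultures of these few lines. Cells were grown on feeder fibroblasts, and regular sorting kept the lines haploid. The paper names haploid cells as the RNA-seq input and describes no sort at that step. In such bulk RNA, fewer cells of a type and less RNA per cell cannot be told apart.

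FPKM values carry no read counts, so the depth was estimated from the FPKM of single fragments on genes of known length. It came to 14300000 to 22000000 fragments per library. Transcript lengths were counted after taking off 280 bp lost to fragment ends. On 1 kb of such length, 3 fragments were worth 0.136 to 0.211 FPKM. These floors cover counting error only. Switched 2i-14 stood apart in its total, 2146932 FPKM beside at most 871848 elsewhere, although its implied depth was 21800000 fragments. Pluripotency markers were high throughout: the lowest of 10 markers in any library was Sox2 at 10.7 FPKM, and Nanog lay between 110.2 and 467.0 FPKM. The mean log2(FPKM + 1) of 15 fibroblast markers was above 1 in 3 libraries only: TSa2i-C57 p58 had 1.28, 2i-14 p39 had 2.07 and TSa2i-14 p54 had 2.28, while the other 10 had 0.142 to 0.55. The summed FPKM of those 15 markers was 42.6 to 140.5 in the 3 libraries and 1.84 to 10.4 in the other 10. In those 10, single markers ran from 0 to 3.55 FPKM, and their medians from 0 to 1.12. The 3 libraries are named below wherever a value moves with them.

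Sequence upstream of the genes was read for the endocytic receptor genes, because Amn and Cubn encode partners of a single receptor and differed widely in level. The reference table (RefSeq, GRCm38.p6) held promoters for 5 of the 10 members, namely Cubn, Amn, Dab2, Lamb1 and Foxa2, with 8 start sites in all. The 200 bases from 250 to 51 before the start are given 5′ to 3′ on the gene's strand, in lower case. Capitals mark a match to AGATAA or TGATAA, letters that GATA factors are known to bind, searched on both strands.
Cubn, chr2:13491927-13492126, minus strand: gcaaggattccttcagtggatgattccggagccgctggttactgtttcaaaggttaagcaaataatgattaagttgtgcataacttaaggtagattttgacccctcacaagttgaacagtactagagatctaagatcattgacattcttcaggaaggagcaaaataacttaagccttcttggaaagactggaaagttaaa
Amn, chr12:111270846-111271045, plus strand: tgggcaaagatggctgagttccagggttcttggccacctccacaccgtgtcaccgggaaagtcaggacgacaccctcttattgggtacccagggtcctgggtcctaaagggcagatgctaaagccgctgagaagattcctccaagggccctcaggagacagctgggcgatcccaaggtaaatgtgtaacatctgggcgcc
Dab2, first start site, chr15:6299539-6299738, plus strand: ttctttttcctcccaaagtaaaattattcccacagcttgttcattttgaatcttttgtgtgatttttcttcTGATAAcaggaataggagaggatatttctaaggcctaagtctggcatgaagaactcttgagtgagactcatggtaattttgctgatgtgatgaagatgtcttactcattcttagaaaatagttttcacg
The Dab2 stretch held 1 match, and the Cubn and Amn stretches held none. Of the 8 member promoters, 2 held a match, the other being a start site of Foxa2, and 14.2% of 32851 promoters in the table held at least 1 in the same window. The Cubn stretch contained 2 CpG dinucleotides and the Amn stretch 6, where the median promoter of the table had 4. The second Dab2 start site had 15 CpG dinucleotides and the first had 1. These matches describe letters only.

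In the order of median FPKM over the 13 libraries, Lamb1 came first at 1.66, followed by Amn at 1.55 and Lama1 at 0.761. Sox7 (0.161), Dab2 (0.130), Gata4 (0.0931), Sox17 (0.0397), Gata6 (0.0322), Cubn (0.00414) and Foxa2 (0) followed. The ranges of neighbours in this order overlapped at every step. Lamb1 exceeded Amn in 8 of 13 libraries, and Lama1 exceeded Sox7 in 12 of 13. Among all symbols, 63.9% of 24028 had a lower median than Lamb1, 43.8% a lower one than Gata4, and 35.9% had a median of 0.

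**Figure D1:**
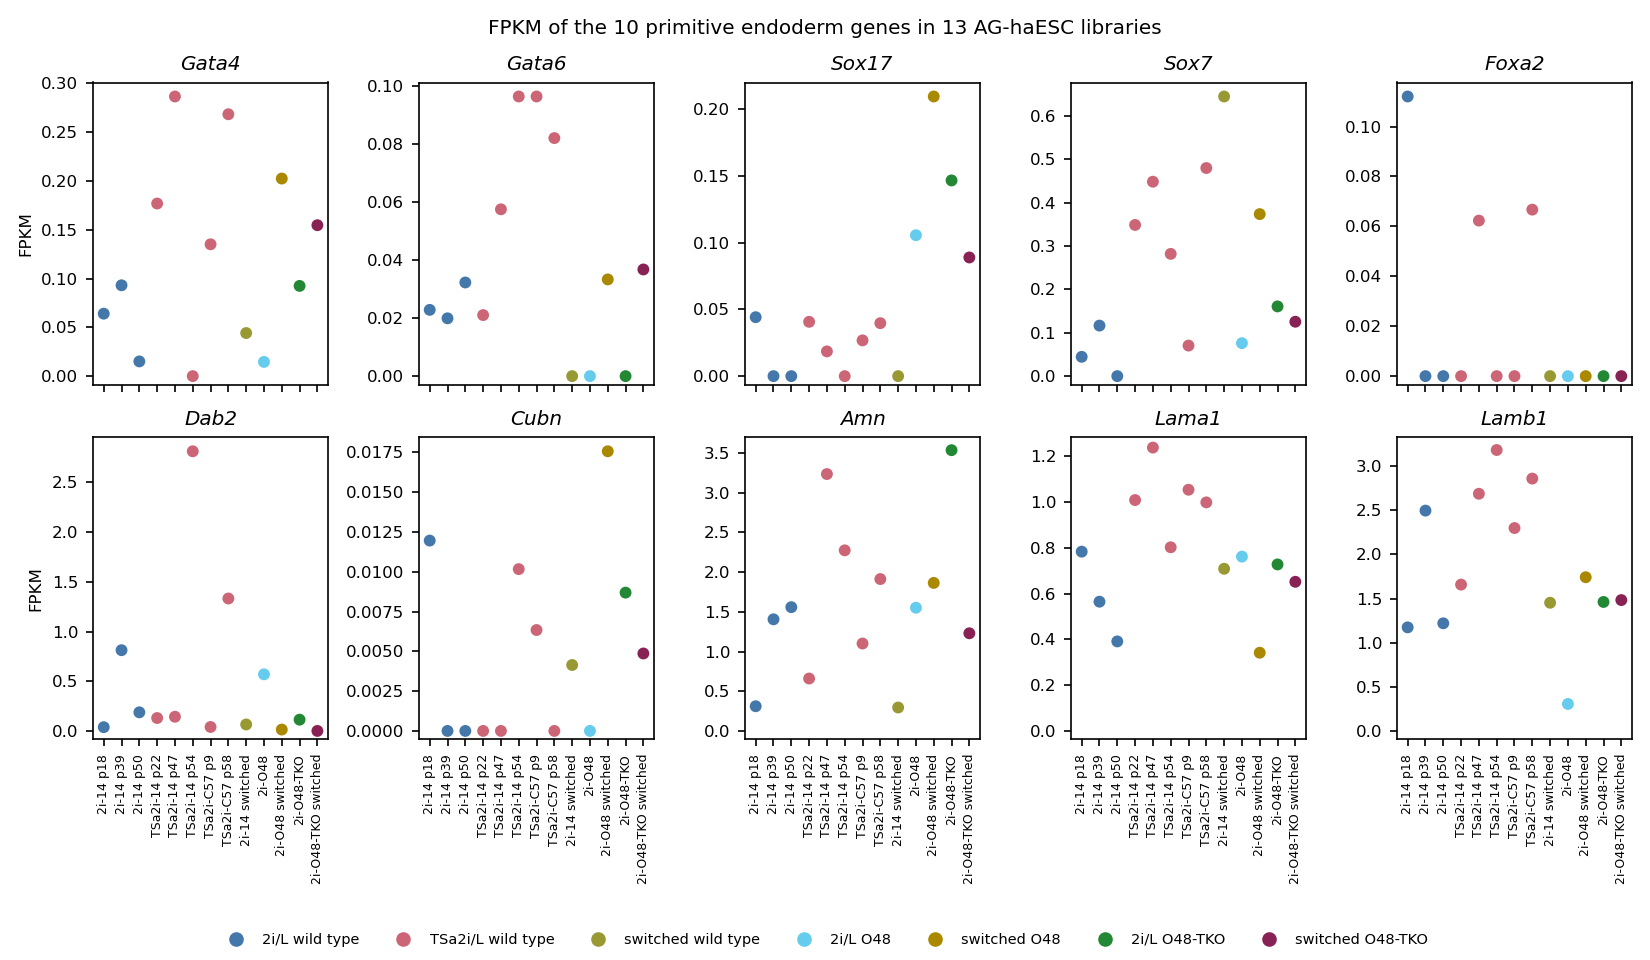
Each panel plots the FPKM of a member (vertical axis, starting at 0 and scaled per gene) in the 13 libraries (horizontal axis), with 1 point per library and colours for the group. Lamb1, Amn and Lama1 stood above 0 everywhere, with Lamb1 between 0.305 and 3.18 FPKM, whereas Foxa2 was at 0 in 10 libraries.

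Gata4 encodes a zinc finger factor of primitive endoderm and heart. Its level in 2i-14 was 0.0640 FPKM at p18, 0.0931 at p39 and 0.0151 at p50, and in TSa2i-14 it was 0.177 at p22, 0.287 at p47 and 0 at p54. In TSa2i-C57 Gata4 was 0.135 FPKM at p9 and 0.268 at p58. Switched 2i-14 had 0.0442, 2i-O48 0.0146 before and 0.203 after the switch, and 2i-O48-TKO 0.0925 before and 0.155 after. These levels corresponded to 0 to 16 fragments per library, and all 12 Gata4 values above 0 were within 0.1 of a whole number of fragments. 4 of the 5 TSa2i/L libraries lay above all 3 libraries of 2i-14, and TSa2i-14 p54, at 0, lay below them.

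Gata6, a zinc finger factor that acts early in primitive endoderm, was covered by 0 to 5 fragments. It was 0.0228, 0.0199 and 0.0322 FPKM in 2i-14 at p18, p39 and p50. The TSa2i-14 libraries had 0.0210 at p22, 0.0574 at p47 and 0.0963 at p54, and those of TSa2i-C57 had 0.0963 at p9 and 0.0819 at p58. Gata6 was at 0 in switched 2i-14 and in both lines with deletions before the switch, and at 0.0333 FPKM in switched 2i-O48 and 0.0367 in switched 2i-O48-TKO. Of the 13 libraries, 4 reached 3 fragments, and all 4 were in TSa2i/L. At this depth a difference of a few fragments could not be told from counting error.

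Sox17, an SRY-related factor needed for definitive and extraembryonic endoderm, was highest in the cells with deleted DMRs. It was 0.106 FPKM in 2i-O48, 0.210 in switched 2i-O48, 0.147 in 2i-O48-TKO and 0.0889 in switched 2i-O48-TKO, which is 4.74 to 12.3 implied fragments. In the 9 wild-type libraries it was at 0 in 2i-14 p39, p50 and switched 2i-14 and in TSa2i-14 p54. The others had 0.0442 in 2i-14 p18, 0.0407 and 0.0185 in TSa2i-14 p22 and p47, and 0.0268 and 0.0397 in TSa2i-C57 p9 and p58, at most 1.89 fragments. The 4 libraries with deletions therefore did not overlap the 9 wild-type ones. Of 19824 genes above 0 in any of the 13 libraries, 0.419% were separated in this way and direction, and 1 of the 10 members was. The separation was noticed after the values were seen and was not tested. Sox17 was too low to enter the limma fit, and its fragment numbers rest on an approximate length. 2i-O48 and 2i-O48-TKO share deletions, so they are not independent lines. Deletion and line of origin cannot be told apart here, because every wild-type library came from another line.

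Sox7, a close relative of Sox17 expressed in parietal endoderm and endothelium, varied most among the factors. It was 0.0445 FPKM at p18, 0.117 at p39 and 0 at p50 in 2i-14. TSa2i-14 had 0.349 at p22, 0.448 at p47 and 0.282 at p54, and TSa2i-C57 had 0.0705 at p9 and 0.480 at p58. 4 of the 5 TSa2i/L libraries lay above the 3 libraries of 2i-14, and TSa2i-C57 p9 lay within their range. The highest value of all was 0.645 FPKM in switched 2i-14, about 42.4 fragments, where 2i-14 p50 had none. Sox7 was 0.0760 FPKM in 2i-O48 and 0.374 after its switch, and 0.161 and 0.125 in 2i-O48-TKO before and after.

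Foxa2, a forkhead factor of endoderm and axial mesoderm, was listed at 0 in 10 libraries. The other 3 were 2i-14 p18 at 0.112 FPKM, TSa2i-14 p47 at 0.0623 and TSa2i-C57 p58 at 0.0667, with no more than 3.11 fragments. A count of 0 allows up to 3 fragments, which for Foxa2 is 0.0737 to 0.114 FPKM depending on the library.

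**Figure D2:**
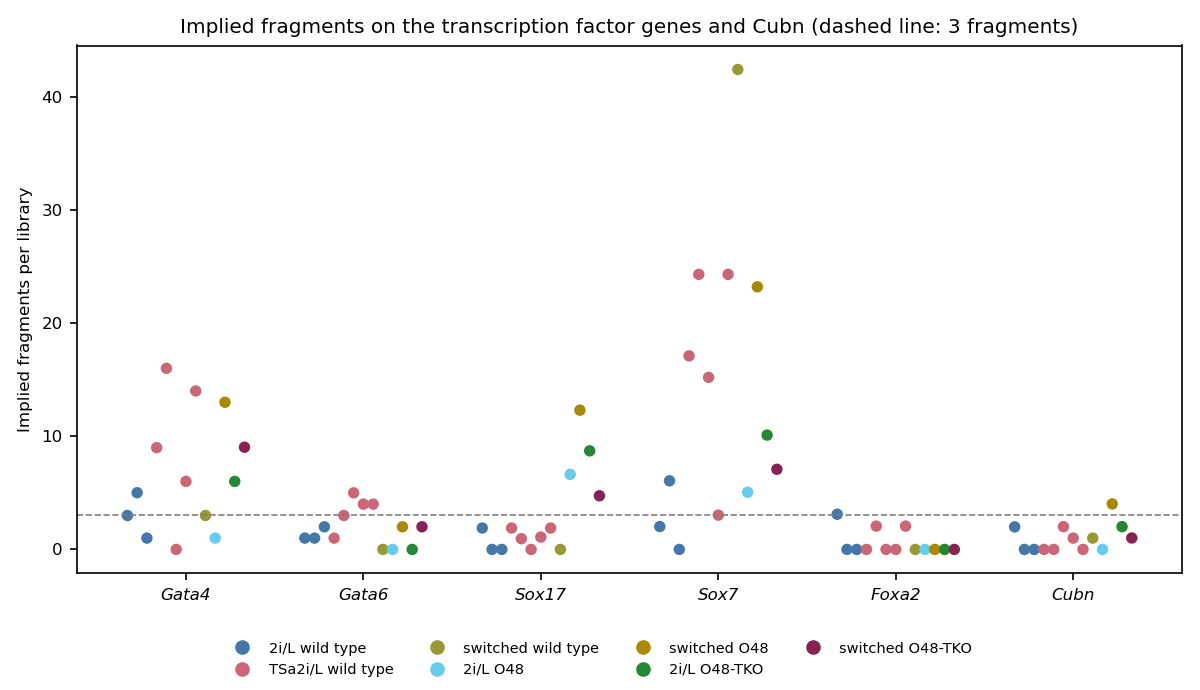
Implied fragments per library (vertical axis) are plotted for the 5 transcription factor genes and Cubn (horizontal axis), with 1 point per library, colours for the group and a dashed line at 3 fragments. Sox7 in switched 2i-14 was the highest point at 42.4 fragments, and the highest values of Gata6, Foxa2 and Cubn were 5, 3.11 and 4.02.

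The endocytic receptor of visceral endoderm is formed by cubilin (Cubn), which binds ligands, and amnionless (Amn), which anchors it in the membrane, and the adaptor DAB2 links such receptors to clathrin. Amn was detected in all 13 libraries and Cubn reached 3 fragments in 1. Amn lies on mm9 at chr12:112509322-112514637. In 2i-14 it was 0.311 FPKM at p18, 1.41 at p39 and 1.56 at p50. In TSa2i-14 Amn was 0.660 at p22, 3.24 at p47 and 2.27 at p54, and in TSa2i-C57 it was 1.10 at p9 and 1.91 at p58. The means were 1.09 ± 0.681 FPKM (SD, n = 3) in 2i-14 and 1.84 ± 1.01 (SD, n = 5) in TSa2i/L, and the groups overlapped.

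Cubn had 0.0120 FPKM in 2i-14 p18, 0.0102 in TSa2i-14 p54, 0.00634 in TSa2i-C57 p9 and 0.00414 in switched 2i-14. It had 0.00869 in 2i-O48-TKO, 0.00487 after the switch of that line and 0.0176, the highest value, in switched 2i-O48. Cubn was at 0 in the other 6 libraries. All 7 values above 0 were within 0.1 of a whole number of fragments, from 1 to 4 on a transcript of up to 11373 bp. Across the 13 libraries Amn and Cubn had a Pearson correlation of -0.00990 on log2(FPKM + 1), and all points of this kind share their library's depth. Lrp2, which encodes megalin, the usual companion of cubilin in endocytosis, was between 0.0323 FPKM in TSa2i-C57 p9 and 0.253 in 2i-14 p50.

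Dab2 was unevenly distributed. TSa2i-14 p54 had 2.81 FPKM, TSa2i-C57 p58 had 1.33 and 2i-14 p39 had 0.812, and these were the 3 libraries with the highest fibroblast markers. In 2i-14 p18 and p50 Dab2 was 0.0378 and 0.187, in TSa2i-14 p22 and p47 0.130 and 0.143, and in TSa2i-C57 p9 0.0399. 2i-O48 had 0.569 FPKM with a fibroblast mean of 0.155, and 2i-O48-TKO had 0.113. After the switch Dab2 was 0.0651 in 2i-14, 0.0138 in 2i-O48 and 0 for 2i-O48-TKO. Over the 13 libraries Dab2 and the fibroblast mean had a Pearson r of 0.87 on the log scale, the highest of the 10 members, with most of the spread from 3 libraries. The part of feeder RNA in these Dab2 values was not tested. Without the 3 libraries, Dab2 was at most 0.187 FPKM in wild-type cells.

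**Figure D3:**
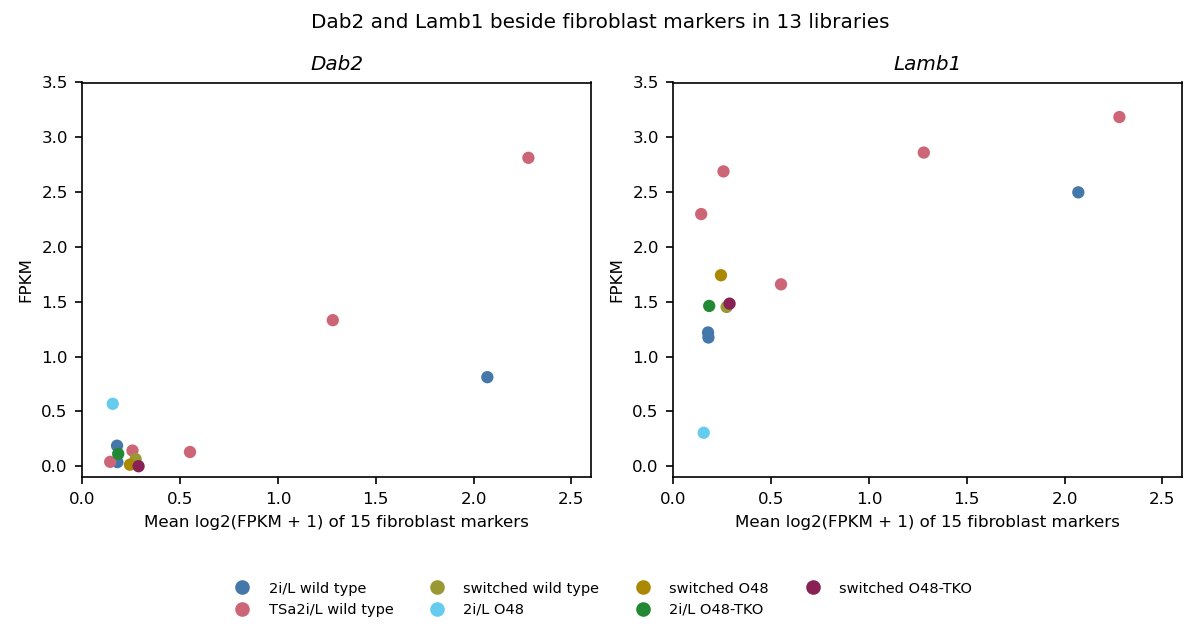
FPKM of Dab2 (left) and Lamb1 (right) on the vertical axes is plotted against the mean log2(FPKM + 1) of 15 fibroblast markers on the horizontal axes, with 1 point per library and colours for the group. The 3 libraries to the right of 1 on the horizontal axis had the 3 highest Dab2 values, 0.812, 1.33 and 2.81 FPKM, while Lamb1 also reached 2.69 in a library with few fibroblast markers.

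The laminin chains were the most steadily detected members. Lama1 and Lamb1 encode an alpha and a beta chain that join the gamma chain encoded by Lamc1 in the laminin of early basement membranes, which primitive endoderm lays down. Lama1 (mm9, chr17:68046605-68171985) was 0.783, 0.564 and 0.391 FPKM in 2i-14 at p18, p39 and p50. In TSa2i-14 it was 1.01 at p22, 1.24 at p47 and 0.802 at p54, and TSa2i-C57 had 1.05 at p9 and 0.998 at p58. Lama1 was thus higher in every TSa2i/L library than in any 2i-14 library. Without the 3 libraries rich in fibroblast markers the ranges were 1.01 to 1.24 against 0.391 to 0.783 FPKM. Of 18909 genes above 0 in these 8 libraries, 8.37% were higher in every TSa2i/L library, and 1 of the 10 members was, a share close to that background.

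Lamb1 (mm9, chr12:31950099-32014509) was 1.17, 2.50 and 1.22 FPKM in 2i-14 at p18, p39 and p50. TSa2i-C57 had 2.30 at p9 and 2.86 at p58, while TSa2i-14 had 1.66 at p22, 2.69 at p47 and 3.18 at p54. The means were 1.63 ± 0.751 FPKM (SD, n = 3) and 2.54 ± 0.586 (SD, n = 5), and the groups overlapped through 2i-14 p39, a library with high fibroblast markers. Lamb1 and the fibroblast mean had an r of 0.62 over 13 libraries, and the part of feeder RNA was not tested. The partner Lamc1 was higher than both chains, at 5.82 to 11.9 FPKM. Lamc1 exceeded Lamb1 in all libraries, as the ranges of the 2 genes, 5.82 to 11.9 and 0.305 to 3.18 FPKM, did not meet.

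The first comparison asked whether medium set the members apart in wild-type lines, with 5 TSa2i/L against 3 2i-14 libraries. The limma fit on log2(FPKM + 1) covered 10387 genes that reached 1 FPKM in 3 or more of the 8 libraries. It called 786 genes at an adjusted p of 0.05, 7.57% of those tested, and none of the 3 members tested, of which 1 had an unadjusted p under 0.05. The difference was 0.42 ± 0.32 (SE) for Amn, with an adjusted p of 0.476. It was 0.36 ± 0.16 for Lama1, with an adjusted p of 0.199, and 0.45 ± 0.22 for Lamb1, with an adjusted p of 0.252. Lama1 passed the filter only through 3 TSa2i/L libraries, since no 2i-14 library reached 1 FPKM, so its presence among the tested genes depended on the direction of its difference. The other 7 members were too low to be tested, which leaves their differences without a test. The fibroblast markers, 6 of 15 tested, had a median difference of 0.52 and none called. Medium and line cannot be told apart here, because 2i-14 alone represented 2i/L.

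Genes of related programmes were read from lists. Of 20 other endoderm genes 7 were tested, 1 fell and none rose, with a median difference of 0.18 beside 0.07 over all genes tested. The gene that fell was Cited1, a transcriptional co-regulator, by 1.58 ± 0.28 (SE) on the log2 scale, with an adjusted p of 0.0074. Pdgfra, the receptor that often marks primitive endoderm, was between 0 and 0.352 FPKM in the 13 libraries. Its highest values, 0.352 in TSa2i-C57 p58, 0.116 in TSa2i-14 p54 and 0.0646 in 2i-14 p39, fell in the libraries rich in fibroblast markers. Other genes of this list were far higher, such as Sparc at 46.9 to 255 FPKM and Cited1 at 8.69 to 169. In each library 5 to 8 of the 20 genes reached 1 FPKM. Of 10 genes of the FGF and ERK route 9 were tested and 2 rose, with a median of -0.08. They were Spry4, a feedback inhibitor of the route (0.83 ± 0.22, adjusted p 0.0415), and Etv4, an ETS factor downstream of it (0.64 ± 0.17, adjusted p 0.0486). Neither Spry4 nor Etv4 reached 1 FPKM in 2i-14, so both passed the filter only through TSa2i/L and only a higher level there could be tested. Fgf4, the ligand, was at 38.3 to 64.3 FPKM in the 13 libraries. None of 10 pluripotency markers was called.

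**Figure D4:**
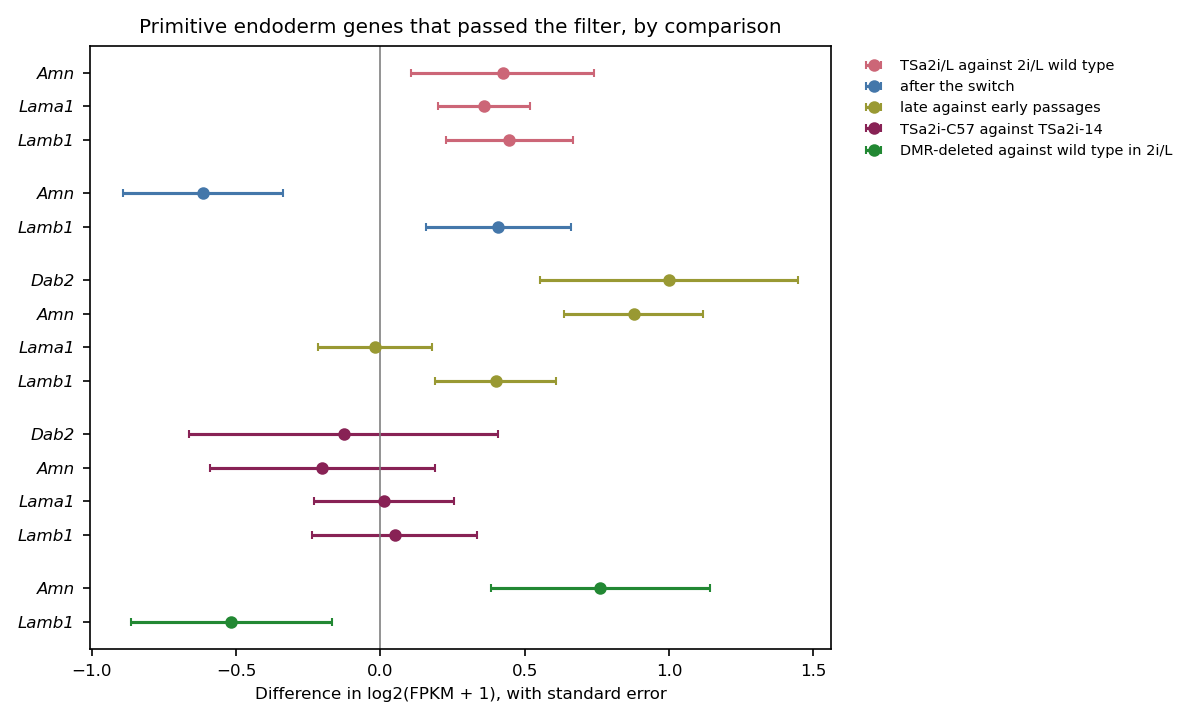
Differences in log2(FPKM + 1) (horizontal axis) are plotted with their standard errors as bars for the members that passed the filter in each comparison (vertical axis, colours for the comparison). In the medium comparison Amn, Lama1 and Lamb1 lay at 0.42, 0.36 and 0.45, and after the switch Amn lay at -0.61 and Lamb1 at 0.41.

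The second comparison followed 3 lines before and 5 passages after the switch, with the line as a block and p50 as the control for 2i-14. Amn went from 1.56 to 0.295 FPKM in 2i-14, from 3.54 to 1.23 in 2i-O48-TKO and, the other way, from 1.55 to 1.86 in 2i-O48. The mean change of Amn was -0.61 ± 0.28 (SE) on the log2 scale with an adjusted p of 0.222 in limma. Without the line 2i-O48 it was -1.0 with an adjusted p of 0.0135, so 1 line decided whether Amn was called. Lamb1 went from 1.22 to 1.45 FPKM in 2i-14, from 0.305 to 1.74 in 2i-O48 and from 1.46 to 1.48 in 2i-O48-TKO. Its change of 0.41 ± 0.25 had an adjusted p of 0.351, and without 2i-O48 it was 0.08. The fit called 672 of 9759 genes, 6.89%, and neither of the 2 members tested, both of which had an unadjusted p above 0.05.

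The other 8 members were below the filter and are described by their pairs. Gata4 was higher after the switch in all 3 lines, from 1 to 3 fragments in 2i-14, from 1 to 13 in 2i-O48 and from 6.01 to 9.03 in 2i-O48-TKO. With Lamb1, that makes 2 of 10 members higher in all 3 pairs, where 14.5% of 18837 genes were. Dab2 was lower in all 3 pairs, and 22.5% of the genes were. Sox7 was higher after the switch in 2i-14 and 2i-O48 and lower in 2i-O48-TKO. Lama1 was 0.708 FPKM in switched 2i-14, 0.761 and 0.341 in 2i-O48 before and after, and 0.727 and 0.651 in 2i-O48-TKO. The control of 2i-14, p50 at 0.391 FPKM, had the lowest Lama1 value of that line. The switched culture was also above p39, at 0.564, and below p18, at 0.783.

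**Figure D5:**
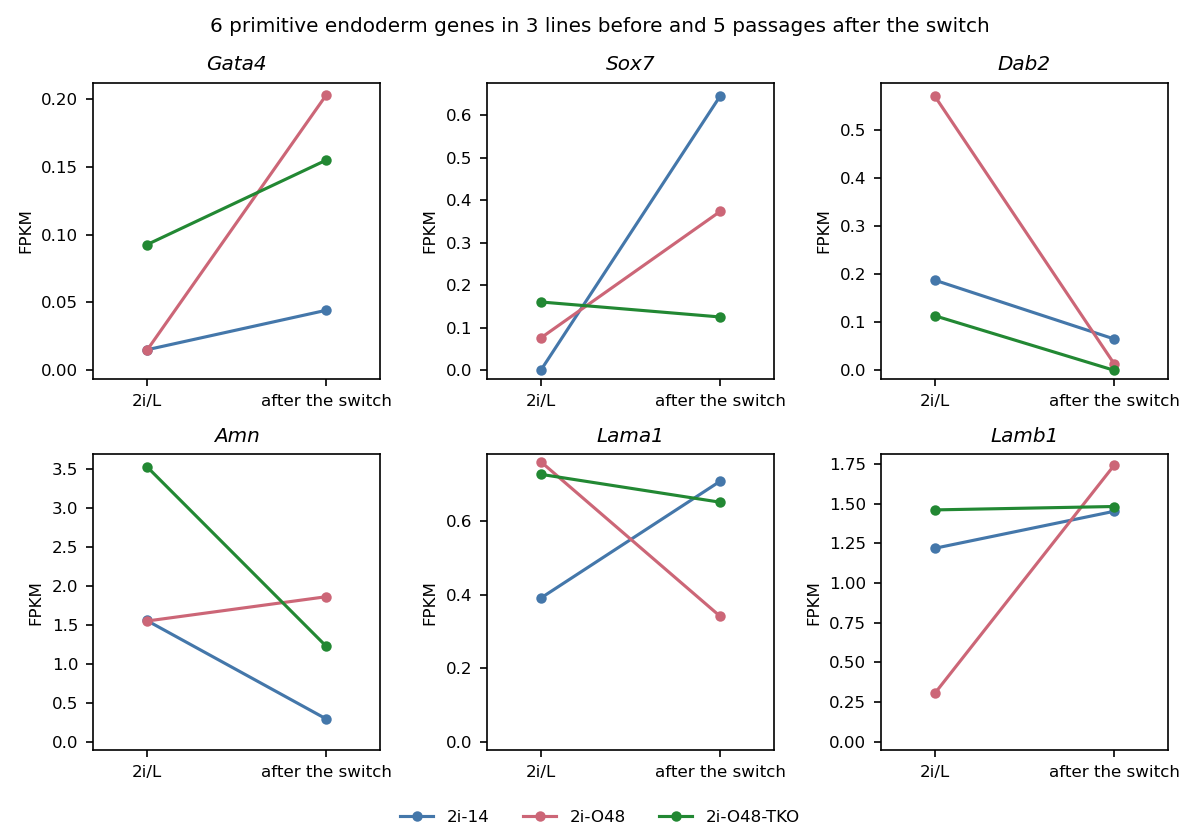
FPKM (vertical axes, from 0) of 6 members is joined by a line between the 2i/L library and the switched library (horizontal axes) of each of 3 lines. Gata4 and Lamb1 ran upwards and Dab2 downwards in all 3 lines, whereas Amn ran downwards in 2i-14 and 2i-O48-TKO only, from 1.56 to 0.295 and from 3.54 to 1.23.

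Of the 20 other endoderm genes 6 were tested after the switch, of which 3 fell and none rose, with a median of -1.06 beside -0.09 over all genes tested. Cited1 fell by 2.24 ± 0.36 (SE) with an adjusted p of 0.0225. Srgn, a proteoglycan gene, fell by 1.83 ± 0.21 with an adjusted p of 0.0111. Sparc, which encodes a matrix protein abundant in parietal endoderm, fell by 1.19 ± 0.18 with an adjusted p of 0.0204. Of the FGF and ERK genes 9 were tested and 3 rose: Dusp6, a phosphatase that acts on ERK, by 1.90 ± 0.35 (adjusted p 0.0331), Spry4 by 1.51 ± 0.33 (0.0483) and Etv4 by 1.13 ± 0.25 (0.0494). Srgn passed the filter only through the 3 libraries before the switch, and Spry4 only through the 3 after it, so each could be tested in its own direction alone. Etv4 needed the switched libraries to pass, since 2i-O48 alone reached 1 FPKM before the switch. Fbxo15 (-1.14 ± 0.19, adjusted p 0.0262) and Nanog (-0.93 ± 0.20, adjusted p 0.0483) fell among the 10 pluripotency markers. All of these p-values are from the limma fit across genes. The medium and the switch comparison share the library 2i-14 p50.

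The third comparison, within TSa2i/L, was of late passages (3 libraries) with early ones (2 libraries). Amn was 0.660 and 1.10 FPKM in the early and 3.24, 2.27 and 1.91 in the late libraries, without overlap. Its difference of 0.88 ± 0.24 (SE) on the log2 scale had an unadjusted p of 0.0072 in limma and an adjusted p of 0.53. Dab2 differed by 1.00 ± 0.45 (adjusted p 0.564) and Lamb1 by 0.40 ± 0.21 (adjusted p 0.587), both with late libraries above early ones, and 2 of the 3 late libraries were those with high fibroblast markers. Dab2 passed the filter only through 2 late libraries, TSa2i-14 p54 and TSa2i-C57 p58, so only a difference in this direction could enter the test. Lama1 differed by -0.02 ± 0.20. Thus 3 of 10 members were higher in every late library, where 16.5% of 18052 genes were. No gene was called in this comparison, 0% of 10502 tested, with 928 at an unadjusted p under 0.05, and of the 4 members tested 1 was under it. In late TSa2i-14 p47, which had a fibroblast mean of 0.256, Amn was 3.24 and Dab2 was 0.143 FPKM.

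Between the lines TSa2i-C57 and TSa2i-14, with 2 against 3 libraries, the 4 members tested differed by -0.20 ± 0.39 (Amn), -0.13 ± 0.54 (Dab2), 0.05 ± 0.28 (Lamb1) and 0.01 ± 0.24 (Lama1). limma called 0% of 10502 genes, 366 had an unadjusted p under 0.05, and no member did. Between the 2 lines with deleted DMRs and 2i-14, all in 2i/L, limma called 12 of 10164 genes, 0.118%, and neither of the 2 members tested, both with an unadjusted p above 0.05. Deletion and line cannot be told apart in this comparison, because 2i-14 was its only wild-type line. 2i-O48 had 1.55 FPKM of Amn and 2i-O48-TKO had 3.54, beside 0.311, 1.41 and 1.56 in the 3 libraries of 2i-14. The mean of the 2 lines with deletions minus that of 2i-14 was 0.76 ± 0.38 on the log2 scale, with an adjusted p of 0.949. Lamb1 was 0.305 FPKM in 2i-O48, its lowest value in any library, and 1.46 in 2i-O48-TKO, beside 1.17, 2.50 and 1.22 in 2i-14. For Lamb1 the lines with deletions minus 2i-14 gave -0.52 ± 0.35, with an adjusted p of 1.

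The highest Pearson correlation between 2 members on log2(FPKM + 1) over 13 libraries was 0.728, between Gata6 and Lamb1, followed by 0.556 between Sox17 and Cubn, both pairs with a gene of few fragments. Lama1 and Lamb1 had an r of 0.322. The mean of the 10 members had an r of 0.631 with the fibroblast mean. Foxa2, Cubn, Gata6 and Sox17, at most 0.210 FPKM in any library, add little to that mean of the members. Among 11854 other genes that reached 1 FPKM in any library, those most like the mean of the members were Glrp1 (r of 0.926), Cd47 (0.902), Cxxc5 (0.901), Terf2 (0.901) and Atp1b1 (0.900). Glrp1 ranged from 0.0281 to 1.87 FPKM and Atp1b1 from 40.5 to 84.7. These correlations are descriptions over libraries that share lines, media and depth.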

How the data were processed

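Samples were grouped by the line, medium, passage and genotype in the labels. Of 41 samples of the series, 13 RNA-seq libraries were analysed; 28 were not analysed here. The authors amplified full-length cDNA from sorted haploid cells, mapped reads to mm9 and deposited an FPKM value per gene. Tools named in the submitters' processing notes are Bowtie2 2.2.2, TopHat2 2.0.11 and Cufflinks 2.2.1; the gene annotation is not given in the sources used here. Amplification from few cells adds noise to low values.

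Rows of repeated symbols (268 of 24028) were summed. Comparisons used limma 3.58.1 (R 4.3.3) with an intensity trend on log2(FPKM + 1) and Benjamini-Hochberg adjustment at 0.05 over all genes that reached 1 FPKM in a number of libraries equal to the size of the smaller group. The pseudocount understates changes of low genes. The block of the switch comparison is the cell line named in the labels; deviations from group means correlated at 0.172 for 2i-14, 0.358 for 2i-O48-TKO and -0.141 for 2i-O48. Depth was estimated from 3737 genes with a single transcript over 1500 bp; implied fragments of Dab2 and Sox17, with several transcripts, were often not whole numbers (0 of 8 and 2 of 9 within 0.1) and are approximate. Scripts were tested on simulated data. The late and early classes follow the paper's passage cutoff, applied to the passage numbers in the labels.

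The members and lists were chosen with earlier results of these data known. By rule the text names every member, the called genes of each list (at most 3 per direction where more than 5) and the 5 genes most like the members' mean. Lrp2, Lamc1, Pdgfra, Fgf4, Gsc, Eomes, Cer1 and Sox2 fall outside this rule and count as chosen after their values were seen. Promoters came from RefSeq (GRCm38.p6); the window stops 51 bases before the start because mm9 annotation has longer first exons. Computations used Python 3.11.15, pandas 2.3.3 and matplotlib 3.10.9. Alternatives covered pseudocount, filter, centring, repeated symbols, blocks, covariates and left-out libraries.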

Additional observations from a re-analysis of the deposited data

Results flagged for a closer look

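Lama1 and Gata6 moved one way in 2i-14 and the other way in both lines with deleted DMRs after the switch. Lama1 changed by 0.30 on the log2(FPKM + 1) scale in 2i-14, by -0.39 and -0.06 after the switch of 2i-O48 and of 2i-O48-TKO. Gata6 changed by -0.0458 in 2i-14, from 2 fragments to 0, and by 0.0472 (2i-O48) and 0.0520 (2i-O48-TKO) in the others, from 0 to 2 fragments each. The difference between the lines was not tested, because wild-type cells gave a single pair. The same opposite signs were found in 15.8% of 18837 genes. In the 5 TSa2i/L libraries no member had a library farther from the others than Dixon's limit, over 10 members examined.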

How the results depend on the processing

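No member was called under any alternative run in the medium, passage, TSa2i line and DMR comparisons. After the switch the number of members called ranged from 0 to 1 when lines were left out, the 1 being Amn without 2i-O48 (-1.0, adjusted p 0.0135). Over its alternatives the difference between media was 0.12 to 0.76 for Amn, 0.24 to 0.75 for Lama1 and 0.33 to 0.67 for Lamb1, with adjusted p from 0.0814 to 0.882, and no sign turned. Amn and Lamb1 were tested in 14 alternatives and Lama1 in 10, as it fell below the filter in the rest. The values of 0.76 for Amn and 0.75 for Lama1 came from a pseudocount of 0.1, which stretches the scale of low genes. After the switch the change was -1.09 to -0.41 for Amn, with adjusted p from 0.0135 to 0.694, and 0.08 to 0.81 for Lamb1. Here -1.09 and 0.81 also came from the pseudocount of 0.1. Counts over all genes varied more. In the medium comparison 374 genes were called with no filter, 229 without the libraries rich in fibroblast RNA, 1250 when the 2i/L group also held both lines with deleted DMRs, and 383 to 846 with a library left out. After the switch they were 0 with no filter (3206 at an unadjusted p under 0.05), 1505 with all 3 2i-14 libraries as controls, 778 with no replicate block and 311 to 1461 with a line left out. With a library left out they were 0 to 8 between passages, 0 to 9 between the TSa2i lines and 0 to 20 for the DMR deletions. The TSa2i line comparison gave 62 without the libraries rich in fibroblast RNA, and the DMR comparison gave 0 with no filter (1014 at an unadjusted p under 0.05). The causes were not tested. The line as a replicate block left the count between passages at 0. Median centring moved the median of all genes from 0.07 to -0.05 between media and from -0.09 to 0.07 after the switch. The highest row in place of the sum changed no member. For the DMR comparison the libraries rich in fibroblast RNA came to 2i-14 p39 alone. The filter on low FPKM left 6 to 8 members untested in each comparison.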

Other observations

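Mesendoderm genes were read beside the members. Gsc, a homeobox gene of the organizer, was 0.0542 FPKM in switched 2i-O48 and 2.19 in 2i-O48 before the switch. The other pairs differed less, with 1.00 FPKM in 2i-14 p50 and 0.413 in switched 2i-14. In 2i-O48-TKO Gsc was 1.07 before and 0.885 after the switch. Eomes, a T-box factor, ranged from 0.190 FPKM in switched 2i-O48-TKO to 1.66 in TSa2i-14 p47. Cer1, a secreted inhibitor made by anterior visceral endoderm, was at 0 in all 13 libraries. Of these 8 genes 2 were tested between media and 1 after the switch, and none was called by limma, with 0 and 1 at an unadjusted p under 0.05. The gene tested after the switch was Gsc, which reached 1 FPKM in every library before it and in none after it. Its test was therefore limited to a fall. Eomes, at most 0.639 FPKM in 2i-14, passed the filter between media through TSa2i/L alone, so its test was limited to a higher level there.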
